A study of Oikopleura dioica with 8 samples.

Results

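The proteins of the small (40S) ribosomal subunit are encoded here by 26 gene models of *Oikopleura dioica*, out of 17212 in the count table. They were chosen from the study's list of 88 genes that are orthologs of human TOP genes: every entry whose human gene code was RPS followed by a digit, RPSA or FAU, with the S6 kinases left out. All 26 passed the minimum of 100 reads over the 8 libraries, with 17795 reads for RPS29 to 191411 for RPS6. The list held no entry for 6 small subunit proteins (RPSA, RPS10, RPS15A, RPS21 and RPS28 among them), which were not analysed here. The codes are those of the closest human gene. RPS15P5 and RPS25P8 are named after human pseudogenes of RPS15 and RPS25, and the *O. dioica* genes are called by these codes below.

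The small subunit binds the mRNA and reads its codons, and its proteins are made in fixed proportion to one another and to those of the large subunit. In vertebrates the mRNAs of ribosomal proteins begin with a terminal oligopyrimidine (TOP) motif, through which the mTOR kinase sets how strongly they are translated in growing and starved cells. In *O. dioica*, a planktonic tunicate, many of these mRNAs instead receive their first nucleotides by *trans*-splicing of a short spliced leader RNA. By the study's annotation, 22 of the 26 genes are *trans*-spliced, and 4, with RPS4X, RPS9 and RPS25P8 among them, are not. The roles given below are those of the mammalian and yeast proteins.

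Released animals were taken on day 7, at 30 min after transfer to normal density, and stasis animals on day 7 of growth arrest, which had been brought on in both groups by crowding and sparse feeding. The paper describes the release as a dilution with food present, so density and food changed together. Each state had 2 samples of pooled whole animals, described in the methods as biological replicates, and each sample gave a total RNA library and a library of ribosome protected fragments (RPF), the pieces of mRNA that ribosomes shield from nuclease. Whole-animal libraries cannot tell fewer cells of a type from less RNA per cell. The p-values measure the spread between these 2 samples per state.

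The study used quantitative PCR primers for RPS12 and RPS13 in another experiment, and these are the designed sequences by which the genes can be recognised. Each is given from its 5′ to its 3′ end, with nothing marked by capitals.
RPS12 forward: caggaagtcctcaagcaggg
RPS12 reverse: tagttgccttcgtcgcagtt
RPS13 forward: cacgcaccaggaaagggtat
RPS13 reverse: gtgaggtagtgggacttgcc
RPS12 belongs to the head of the small subunit and RPS13 to its body. Their values are given below with those of the other genes.

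The total RNA libraries held 13041273 to 22839600 reads and the RPF libraries 261745 to 1488886, with the fewer RPF reads in replicate 2 of each state. A small subunit gene had a median of 605 and 152 RPF reads in the release libraries and of 733.5 and 110.5 in the stasis libraries, and at least 65 and 11 reads on release and 31 and 18 in stasis. In the RPF libraries 7 gene models, called dominant below, each took over 1% of at least 1 library. They took a larger part of the replicate 2 libraries. Without them, 993227 of 1240592 and 180025 of 308680 reads were left on release. In stasis 1134588 of 1488886 and 112396 of 261745 reads were left. Read levels were put on a scale of counts per 1000000 reads (CPM) with TMM factors set within each assay. Summed over 21 muscle gene models listed by annotation, total RNA was 5836 and 2518 CPM in released animals and 1846 and 2039 CPM in stasis, and RPF were 6448 and 2363 CPM on release and 1742 and 1644 CPM in stasis. These sums were highest in release replicate 1, and their part in the values below was not tested.

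The first question was how much of the RNA and of the ribosome traffic of the animals went to small subunit genes. Together they took 3.37% and 3.55% of the total RNA reads in the 2 release libraries (3.46% ± 0.13, SD, n = 2) and 3.33% and 3.87% in the 2 stasis libraries (3.60% ± 0.38). Of the RPF reads they took 1.38% and 1.31% on release (1.34% ± 0.052) and 1.38% and 1.11% in stasis (1.24% ± 0.19). The groups overlapped in both assays. The exact two-sided permutation test gave p = 1 for total RNA and p = 0.667 for RPF, in a design that cannot go below p = 0.333. The smallest library, RPF of stasis replicate 2, had a Wilson 95% interval of 1.07% to 1.15%, which covers counting error only. With the 7 dominant gene models left out of the totals, the RPF shares were 1.72% and 2.24% on release and 1.81% and 2.59% in stasis. The release minus stasis difference of the means was 0.098 percentage points with these gene models and −0.22 without them.

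**Figure D1:**
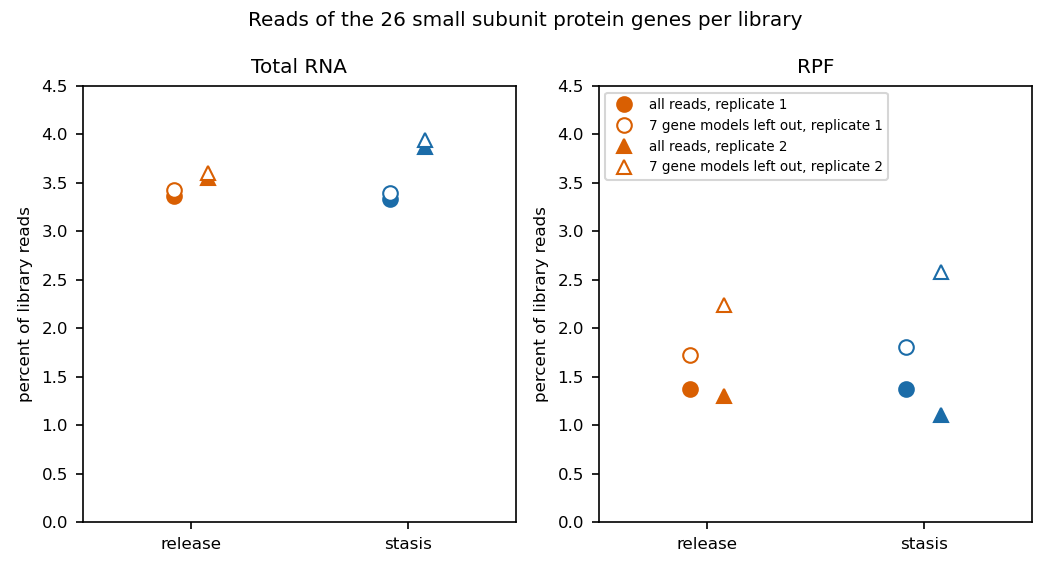
Percent of the reads of each library on the 26 small subunit genes, for total RNA (left) and RPF (right), by state. Filled symbols use all reads, and open symbols leave out the 7 gene models with over 1% of an RPF library. The total RNA shares lie between 3.33% and 3.87% and the RPF shares between 1.11% and 1.38% of all reads, and the release and stasis symbols overlap in both assays.

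The level of each gene came next, with the members picked by role first. RPS6, the small subunit protein phosphorylated by the S6 kinases downstream of mTOR, had 2897 and 3042 CPM of total RNA on release and 2560 and 3011 CPM in stasis, the most reads of the 26 genes in every library. Its RPF were 845 and 1154 CPM on release and 994 and 1033 CPM in stasis. Both kinds of value overlapped between the states. RPS2, which lines the mRNA entry channel, had 1728 and 1775 CPM of total RNA on release and 1384 and 2157 CPM in stasis, so that the release samples lay inside the stasis range. Its RPF were 453 and 699 CPM on release and 510 and 673 CPM in stasis. RPS14, a platform protein near the mRNA exit, had 858 and 973 CPM of total RNA on release and 856 and 954 CPM in stasis, with overlapping ranges. Its RPF were 298 and 357 CPM on release, against 349 and 413 CPM in stasis. Read levels also depend on transcript length, which no source used here gives. A rank by reads, as for RPS6, therefore does not compare amounts of mRNA between genes.

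Of the genes with the primers above, RPS13 (identifier GSOIDT00016540001) had 1237 and 1295 CPM of total RNA on release and 1056 and 1308 CPM in stasis, which overlapped, and RPF of 581 and 540 CPM on release, below 650 and 678 CPM in stasis. RPS12 (GSOIDT00000241001), a protein at the beak of the head, had 425 and 348 CPM of total RNA on release, against 357 and 607 CPM in stasis, where replicate 2 stood well above the other 3 samples. Its RPF were 161 and 166 CPM on release and 148 and 260 CPM in stasis, again with the highest value in stasis replicate 2.

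Both members that are made as fusion proteins carry a ubiquitin-like part ahead of the ribosomal one. RPS27A, made with ubiquitin, had 1977 and 2143 CPM of total RNA on release, against 1824 and 1857 CPM in stasis, where the groups did not overlap. Its RPF were 304 and 699 CPM on release and 265 and 793 CPM in stasis, and so differed more between replicates than between states: replicate 2 over replicate 1 was 2.30 on release and 2.99 in stasis. The ubiquitin part is nearly the same in several genes, and no source used here states how multi-mapped reads were counted, so RPS27A counts are uncertain. FAU, whose product holds a ubiquitin-like part and the ribosomal protein eS30, had 1568 and 1780 CPM of total RNA on release, against 1383 and 1394 CPM in stasis, and RPF of 424 and 411 CPM on release, against 429 and 543 CPM in stasis. FAU was thus higher in total RNA and lower in RPF in both release samples.

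**Figure D2:**
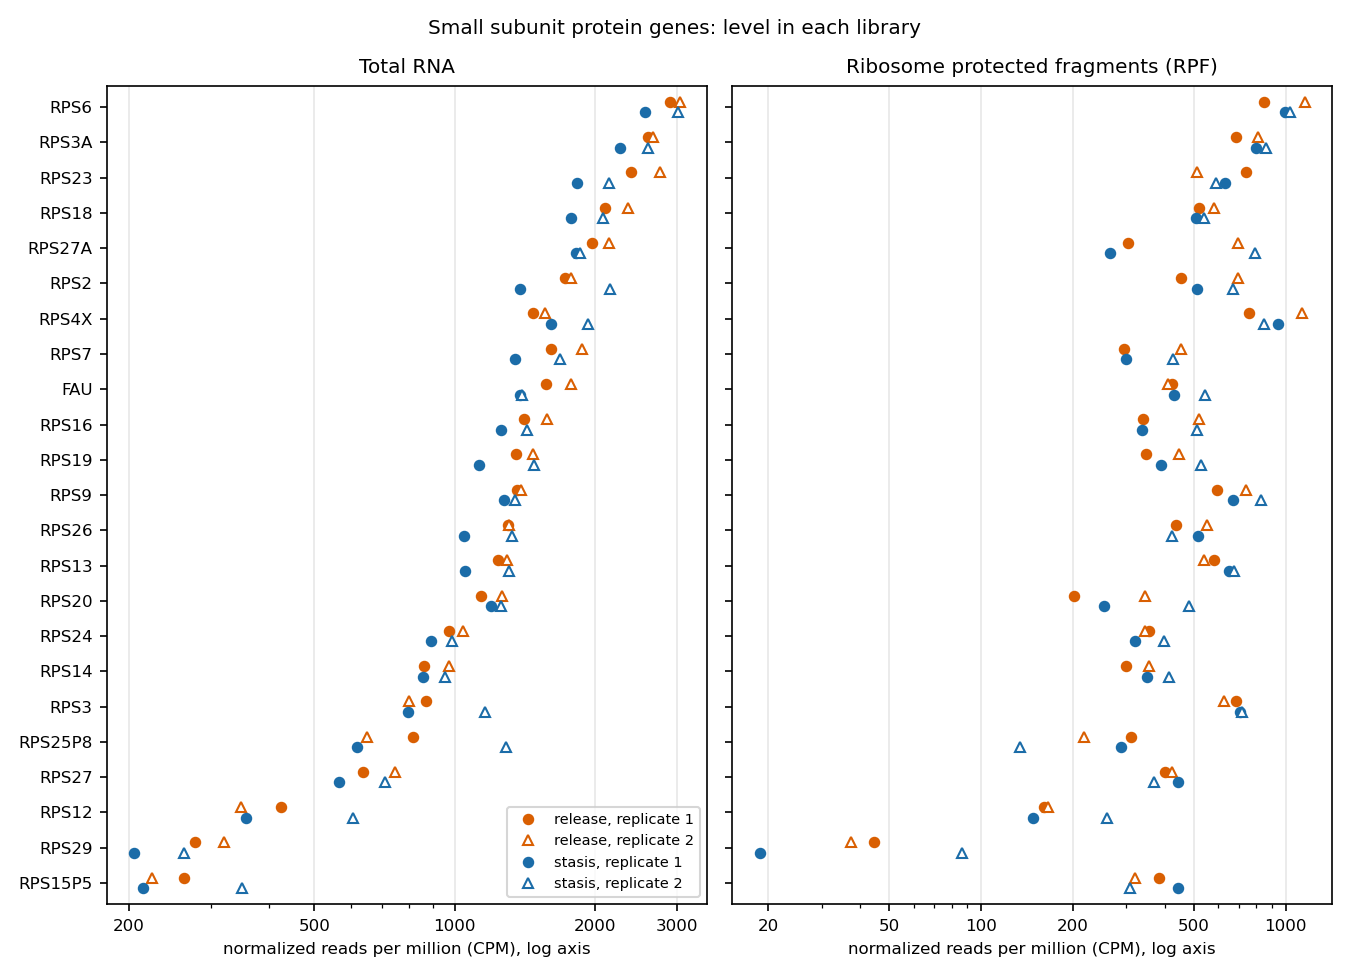
Normalized counts (CPM, log axis) of 23 of the 26 small subunit genes in each library, total RNA on the left and RPF on the right, release in orange and stasis in blue, replicate 1 as circles and replicate 2 as triangles. In total RNA the 4 symbols of most genes lie close together, with stasis replicate 2 of RPS25P8 (1287 CPM) and RPS12 (607 CPM) to the right, and in RPF those of RPS29, RPS27A, RPS20 and RPS25P8 are spread furthest.

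The second question was how heavily each mRNA was occupied by ribosomes for its amount, measured as the ratio of RPF CPM to total RNA CPM in the same sample. Across the genes it ran from 0.15 to 1.46 and from 0.12 to 1.42 in the release samples, and from 0.091 to 2.06 and from 0.10 to 0.88 in the stasis samples. The median of the 26 genes was 0.322 and 0.333 in the release samples and 0.363 and 0.370 in the stasis samples, beside 0.417 and 0.325 on release and 0.430 and 0.257 in stasis over all gene models tested. The small subunit genes thus lay below the median gene model in 19 and 10 cases on release and in 17 and 2 in stasis. The smaller numbers are those of the replicate 2 libraries, in which 6550 (release) and 8051 (stasis) of the gene models had no RPF read at all, against 2991 and 2965 in the replicate 1 libraries.

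RPS15P5, of the family of a head protein whose tail reaches the decoding centre, had the highest ratio of the 26 genes in all 4 samples, with 1.46 and 1.42 on release and 2.06 and 0.88 in stasis. Its total RNA was 263 and 224 CPM on release and 214 and 349 CPM in stasis, and its RPF were 384 and 319 CPM on release and 442 and 308 CPM in stasis. The 2 states overlapped in each of these. RPS3, which helps the ribosome unwind mRNA at the entry channel, came next in all 4 samples, with ratios of 0.79 and 0.78 on release and 0.89 and 0.62 in stasis. RPS3 had 868 and 798 CPM of total RNA on release and 794 and 1160 CPM in stasis, and RPF of 687 and 625 CPM on release, below 709 and 721 CPM in stasis. RPS27 (rank 3 to 5) also stayed near the top. RPS27, a zinc-binding protein, had ratios of 0.63 and 0.57 on release and 0.79 and 0.52 in stasis, where the states overlapped.

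At the low end stood RPS29, a short zinc-binding protein of the head, with 0.16 and 0.12 on release and 0.091 and 0.33 in stasis. It had few reads: total RNA of 277 and 320 CPM on release, against 206 and 262 CPM in stasis, and RPF of 44.4 and 37.3 CPM on release and 18.7 and 86.5 CPM in stasis. RPS29 was the lowest of the genes in 2 samples and only 18th in stasis replicate 2. RPS7, which is mutated in Diamond-Blackfan anaemia, was steadier, with 0.18 and 0.24 on release and 0.22 and 0.25 in stasis (rank 23 to 25), as was RPS18, a head protein next to the P site, with 0.25 and 0.25 on release and 0.29 and 0.26 in stasis (rank 20 to 24). RPS20, also of the head, had 0.18 and 0.27 on release and 0.21 and 0.38 in stasis. The widest moves in rank were those of RPS25P8 (8 to 26) and RPS27A (10 to 26).

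The order of the genes by ratio had a Spearman rho of 0.93 between release replicate 1 and stasis replicate 1 and of 0.79 between the release replicates, and of 0.61 between the stasis replicates. The values with stasis replicate 2, the shallowest RPF library, were 0.61 to 0.69, and those among the other samples 0.79 to 0.93 (26 genes, a description across genes that share each library). In total RNA the order by level had a rho of 0.94 to 0.99 for every pair of samples.

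**Figure D3:**
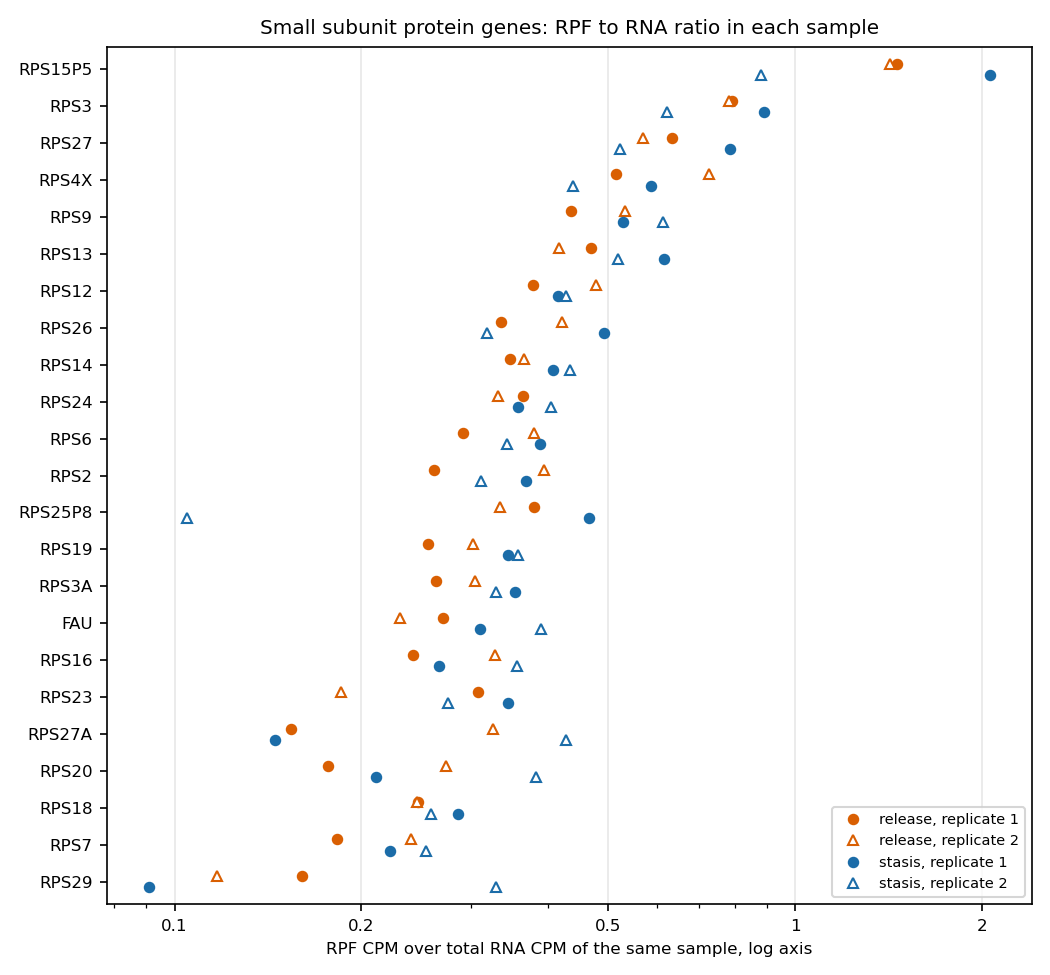
RPF CPM over total RNA CPM of the same sample (log axis) for 23 of the 26 small subunit genes, ordered by ratio, release in orange and stasis in blue, replicate 1 as circles and replicate 2 as triangles. RPS15P5 lies to the right of all others in every sample, with 0.88 to 2.06, RPS3 follows with 0.62 to 0.89, and RPS29 (0.091 to 0.33) and RPS25P8 in stasis replicate 2 (0.10) lie furthest to the left.

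Set against all 14595 gene models tested, with edgeR's quasi-likelihood test of RPF over total RNA within a state, the ratio of 9 small subunit genes was low on release and that of 1 was high. The test was scaled with TMM factors over the 4 libraries of the state, which puts 0 near the bulk of gene models, and calls were made at a Benjamini-Hochberg adjusted p under 0.05. The 9 genes were RPS29, RPS7, RPS20, RPS27A, RPS23, RPS18, FAU, RPS19 and RPS3A, in a state where 14.1% of all gene models were called lower. RPS15P5 was called higher, as were 15.6% of all gene models. The log2 ratio of RPS15P5 was 1.61 (SE 0.29, adjusted p = 0.000819). That of RPS29 was −1.75 (SE 0.32, adjusted p = 0.000865), that of RPS7 −1.17 (SE 0.29, adjusted p = 0.0067) and that of RPS20 −1.10 (SE 0.31, adjusted p = 0.0141). RPS23, at the decoding centre, RPS19, the gene most often mutated in Diamond-Blackfan anaemia, and RPS3A, on the platform, were the others with roles not yet given.

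RPS3 lay just outside the threshold, with 0.73 (SE 0.27, adjusted p = 0.0505). The median of the 26 genes was −0.53, against −0.21 for all gene models, and 20 of them were below 0, as were 56.4% of all gene models. That gap rested on release replicate 1: without it the medians were −0.62 for the 26 genes and −0.65 for all gene models, and without release replicate 2 they were −0.58 and −0.20. The RPF and total RNA libraries of a number came from the same sample of animals, and with the sample as a block 7 of the 9 lower calls held, where 4.67% of all gene models were lower, and RPS15P5 was again the 1 gene higher, where 7.1% were. RPS19 (adjusted p = 0.0873) and RPS3A (adjusted p = 0.109) lost theirs. DESeq2 called 11 genes lower (9.34% of all gene models), without RPS27A and with RPS24 among those added, and called RPS15P5 and RPS3 higher (11.4%). The number of calls rested on the scaling: with library totals in place of TMM factors 21 genes were called lower (38.9% of all gene models) and 0 higher (4.6%), at a median of −1.45 against −1.03 for all gene models, and RPS15P5 had 0.72 (adjusted p = 0.0945). With at least 10 reads in each of the release libraries, 20 genes were lower and RPS15P5 higher, where 21.0% of the 3056 gene models left were lower and 17.1% higher. The median of the 26 genes was then −1.11, against −0.06 for those gene models. This minimum keeps gene models partly by their RPF reads, which are 1 side of the ratio. It therefore cannot place the 26 genes against all gene models.

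In stasis edgeR called 0 of the 26 genes in either direction, where 1.65% of all gene models were called higher and 1.13% lower, and DESeq2 called 0 as well. At an unadjusted p under 0.05, edgeR found RPS15P5 higher (10.6% of all gene models) and 0 lower (16.3%). The median log2 ratio was −0.58, against −0.21 for all gene models, and 20 of the 26 genes were below 0, as were 56.9% of all. The place of the 26 genes turned with the sample: without stasis replicate 1 their median was −0.63, above the −1.15 of all gene models, and without stasis replicate 2 it was −0.45, below −0.21. The standard errors were larger in stasis, with a median of 0.52 over the 26 genes, against 0.27 on release. Scaled to library totals, 4 genes (RPS7, RPS20 and RPS29 among them) were called lower in stasis, where 20.3% of all gene models were, and 0 higher, where 0.829% were. A call on release without one in stasis does not show a difference between the states, for which the test is that of translational efficiency (TE) below.

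The third question was what changed within 30 min of release. In total RNA edgeR called 0 of the 26 genes higher or lower, where 6.8% of all gene models were called higher and 2.27% lower. With unadjusted p under 0.05 there were again 0 (17.3% of all gene models higher, 13.0% lower), and DESeq2 called 0. The log2 changes ran from −0.38 for RPS25P8 to 0.38 for RPS23, with a median of 0.10 (all gene models −0.02), a median SE of 0.18 and 19 of the 26 genes above 0 (48.0% of all gene models). The sign of that median rested on the scaling: with library totals it was −0.04, against −0.16 for all gene models, and 7 genes were above 0.

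Both release samples lay above both stasis samples in total RNA for 6 genes (FAU, RPS9, RPS18, RPS23, RPS27A and RPS29), where 31.3% of all gene models did so. RPS4X was the 1 gene with both release samples below, as were 31.6% of all gene models. RPS23 had 2393 and 2760 CPM on release and 1830 and 2142 CPM in stasis, a log2 change of 0.38 (SE 0.19, edgeR adjusted p = 0.248). RPS29, with the levels above, had 0.35 (SE 0.17, adjusted p = 0.216), the smallest adjusted p of the 26 genes by edgeR. RPS4X, the product of an X-linked gene in humans, had 1472 and 1563 CPM on release and 1614 and 1930 CPM in stasis, a log2 change of −0.22 (SE 0.18, adjusted p = 0.431). Both shares of the 26 genes were thus below those of all gene models.

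In RPF edgeR called 0 of the 26 genes, where 0.0% of all gene models were called higher and 0.00685% lower. With unadjusted p under 0.05 there were 0 (0.363% of all gene models higher, 0.74% lower), and DESeq2 called 0. The median log2 change was −0.05 (all gene models 0.03), between −0.42 for RPS20 and 0.30 for RPS25P8, and 10 genes were above 0 (54.0% of all gene models). The median SE was 0.65, several times that of total RNA, so that 0 calls do not show equal levels. FAU, RPS3 and RPS13 had both release samples below both stasis samples, where 10.3% of all gene models did so, and 0 genes had both above, where 12.8% did. The log2 change was −0.22 (SE 0.64, edgeR adjusted p = 1) for FAU and −0.24 (SE 0.66, adjusted p = 1) for RPS13.

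TE, the RPF level for a given amount of total RNA, was compared between the states as the interaction of state and assay. edgeR, DESeq2 and limma-voom each called 0 of the 26 genes, edgeR called 0.0% of all gene models in either direction, and 0 of the 26 genes had an unadjusted p under 0.05 in edgeR (2.45% of all gene models higher, 3.49% lower). The median log2 change was −0.12 (all gene models −0.03), with 7 genes above 0 (48.8% of all gene models) and a median SE of 0.49. The changes ran from −0.48 for FAU to 0.67 for RPS25P8, where the ratio of stasis replicate 2 (0.10) lay far under that of the other 3 samples (0.33 to 0.46).

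In 6 genes (FAU, RPS3A, RPS13, RPS14, RPS18 and RPS19) the ratio was lower in both release samples than in both stasis samples, where 12.2% of all gene models were so placed, and in 0 genes it was higher, where 13.7% were. FAU had ratios of 0.27 and 0.23 on release and 0.31 and 0.39 in stasis, a log2 change of −0.48 (SE 0.47, edgeR adjusted p = 0.888). RPS13 had 0.47 and 0.42 on release and 0.62 and 0.52 in stasis, a log2 change of −0.34 (SE 0.47, adjusted p = 0.940). The change of FAU was about the size of its SE and that of RPS13 smaller than its SE. A fit with the sample as a block gave larger errors, with −0.47 (SE 0.67) for FAU and −0.35 (SE 0.66) for RPS13. The direction of the list did not hold under other scalings: with library totals the median was 0.17 (all gene models 0.22) with 21 genes above 0. The ratio of 4 genes, with RPS4X, RPS12 and RPS16 among them, was then higher in both release samples, as it was in 18.5% of all gene models, and 0 genes were lower, against 7.24%.

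**Figure D4:**
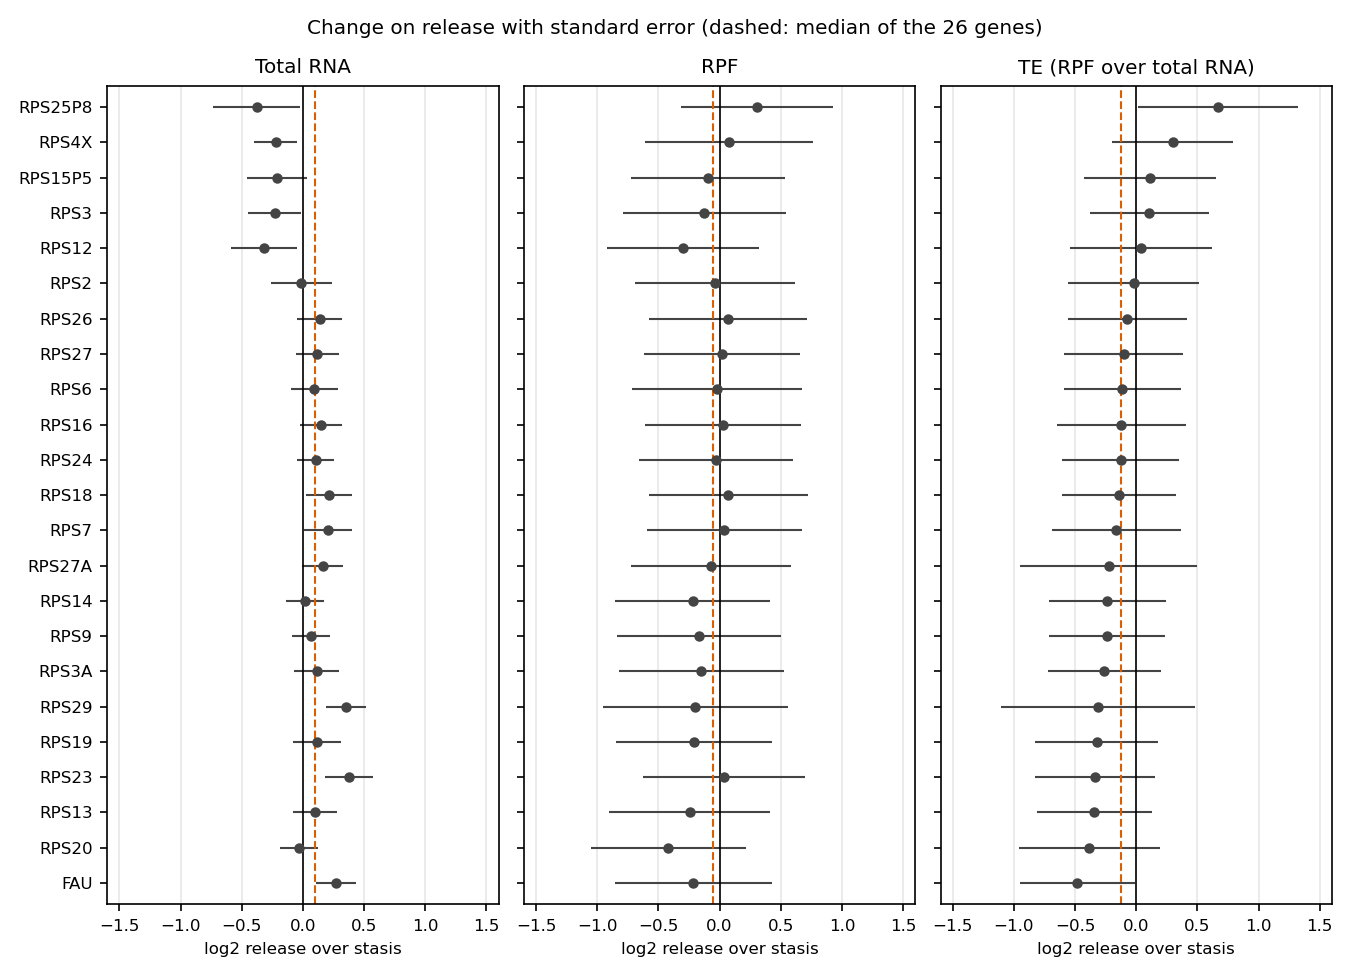
Change on release (log2, release over stasis) with its standard error from edgeR for 23 of the 26 small subunit genes, in total RNA, RPF and TE, ordered by the change in TE; dashed lines mark the medians over all 26 genes of 0.10, −0.05 and −0.12. The total RNA bars are the shortest, and 0 of the changes passed the threshold.

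Replicates of a state differed in a few genes more than the states did. This was noticed after the values were seen and is given without a test. How common such differences were among all gene models was not counted, so whether they are unusual cannot be told. In total RNA, stasis replicate 2 was over 1.4 times stasis replicate 1 for 5 genes: RPS25P8 (2.08), RPS12 (1.70), RPS15P5 (1.63), RPS2 (1.56) and RPS3 (1.46), beside a median of 1.18 over the 26 genes. RPS25P8, RPS12, RPS15P5 and RPS3 were also the 4 genes with more total RNA in release replicate 1 than in release replicate 2, by 1.26, 1.22, 1.17 and 1.09 times, beside a median of 0.94. RPS25, the human relative of RPS25P8, is a head protein that some viral RNAs need for internal initiation. RPS25P8 had 816 and 650 CPM of total RNA on release and 618 and 1287 CPM in stasis, and RPF of 310 and 217 CPM on release and 287 and 135 CPM in stasis, so that stasis replicate 2 was the highest sample in total RNA and the lowest in RPF.

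The calls in total RNA changed when a stasis sample was left out. Without stasis replicate 1, edgeR called 4 genes lower in total RNA on release, namely RPS25P8 (log2 change −0.82), RPS12 (−0.66), RPS15P5 (−0.52) and RPS3 (−0.48), where 9.03% of all gene models were lower. Without stasis replicate 2 it called 2 genes higher, RPS29 (0.53) and RPS23 (0.49), where 18.1% were higher. The lone stasis sample is then assumed to vary like the release samples. RPS25P8, RPS12, RPS15P5 and RPS3 had been picked above for their higher total RNA in stasis replicate 2. Their falls without stasis replicate 1 therefore restate that difference and add no support to it.

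**Figure D5:**
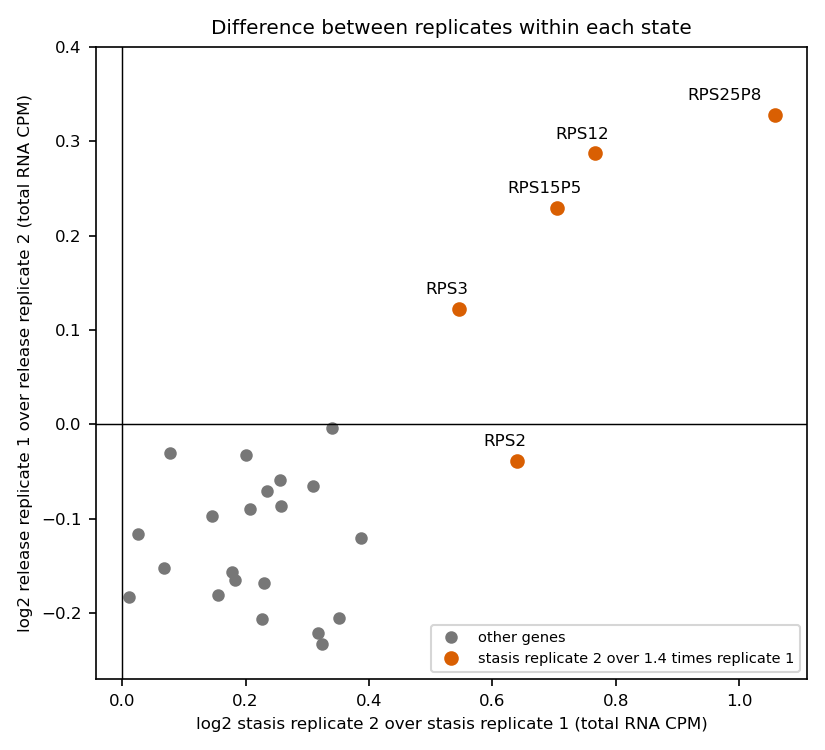
Difference between replicates in total RNA for the 26 small subunit genes: log2 of stasis replicate 2 over replicate 1 on the horizontal axis, log2 of release replicate 1 over replicate 2 on the vertical axis, with the 5 genes over 1.4 times apart in stasis in orange. RPS25P8, RPS12, RPS15P5 and RPS3 stand alone above 0 on the vertical axis.

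The genes were also split by the spliced leader and by their place in the subunit. The 9 lower calls and the 1 higher call of the release ratio all fell among the 22 *trans*-spliced genes, and 0 of the 4 others was called. The TE change was below 0 in 18 of the 22 and above 0 in 3 of the 4, beside 48.8% of all gene models above 0. The median was −0.13 among the first and 0.18 among the second. RPS25P8, with a TE change of 0.67 and a ratio of only 0.10 in stasis replicate 2, is among the 4. These signs rested on the scaling, since with library totals 21 of the 26 genes were above 0. The difference between the *trans*-spliced and the other genes was not tested. Of the 11 head proteins, 5 were called lower and 1 higher in the release ratio, and of the 15 body and platform proteins 4 were called lower, beside 14.1% of all gene models lower and 15.6% higher. With the sample as a block the head lost the call of RPS19 and the body and platform that of RPS3A. By identifier number, 12 of the 26 genes are next to another gene of the list (37 of the 88 genes of the list are), and how the genes lie in the genome was not analysed here.

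The other genes of the TOP list gave the setting for these values. Of 46 large subunit protein genes, edgeR called 1 higher and 0 lower in total RNA (6.8% and 2.27% of all gene models), at a median log2 change of 0.05 (all gene models −0.02), and 0 in TE, at a median of −0.06 (all gene models −0.03). Their ratio on release was called lower in 13 (14.1% of all gene models) and higher in 5 (15.6%), at a median of −0.33 (all gene models −0.21). Of 14 translation factors and other TOP genes, 0 were higher and 2 lower in total RNA, and the ratio on release was lower in 2 and higher in 4, at a median of −0.18, with the same shares and median of all gene models beside them. The differences between these lists and the small subunit genes were not tested.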

How the data were processed

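The authors deposited unnormalized whole-number counts for each gene model. They removed reads on rRNA and tRNA, mapped the rest and counted them per gene. The submitters' processing notes name Bowtie2 2.1.0, TopHat2 2.0.13 and featureCounts. No source used here states the genome build, the strand setting or how multi-mapped reads were counted. All 8 libraries were matched by label, with 0 columns unmatched.

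The quasi-likelihood test of edgeR 4.0.16 (glmQLFit, then glmQLFTest, TMM scaling; R 4.3.3) was run over the 14595 gene models with at least 100 reads, adjusted by Benjamini-Hochberg and called under 0.05, for total RNA, RPF, TE (the interaction, which takes the place of the study's own test, not installed here) and the RPF to RNA ratio within each state. The standard error is the change over the square root of its F statistic. Alternatives were library totals, DESeq2 1.42.0, limma-voom (limma 3.58.1), other minimums, replicate or sample blocks, dominant gene models left out and each sample left out. Shares used scipy 1.17.1. The fits were tested on simulated data, where they called most changed gene models in total RNA but few or none in RPF, TE and the ratios. In TE, 1 of 100 changed gene models was called at a log2 size of 1. At a log2 size of 2 it was 12 of 100, beside 15 false calls. For the ratios 0 were called, whereas the real release ratio had 15.6% of gene models called higher and 14.1% lower. The simulated RPF levels of the ratio tests followed total RNA, unlike the real ones, so they cannot show how far the ratio calls hold. RPF and total RNA libraries of a number share a sample, though their deviations from the state mean were hardly correlated across gene models (r = 0.080 on release and 0.006 in stasis). Many gene models had few or no RPF reads in the replicate 2 libraries, so these correlations cannot show that the shared sample has no effect.

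Named were genes picked by role, those with primers, those highest or lowest in level or ratio, and the largest called or non-overlapping changes. RPS18, RPS27 and the genes of the replicate comparison were added after their values were seen. The members and lists were chosen with earlier results of these data known. The member identifiers matched 0 entries of the RefSeq gene table, so no coordinates are given. Single values of a few genes are not reported here and are left out of the gene-by-gene plots, while the counts and medians include all 26 genes.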

Additional observations from a re-analysis of the deposited data

How the results depend on the processing

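No result changed from a call in one direction to a call in the other. The medians of the 26 genes moved with scaling and filters. For total RNA the median was −0.045 with library totals. For TE it was 0.17 with library totals, −0.020 with TMM factors over all 8 libraries, −0.081 with no minimum of reads and 0.18 as the ratio of mean counts scaled to library totals (all gene models 0.22, 0.04, −0.0038 and 0.29). For the stasis ratio it was −1.68 with library totals (4 lower calls in place of 0), −0.65 with no minimum and −1.15 with at least 10 reads in every library (all gene models −1.22, −0.38 and −0.01). For the release ratio it was −1.45 with library totals (0 higher and 21 lower calls), −0.59 with no minimum and −1.11 with at least 10 reads in every library (20 lower calls; all gene models −1.03, −0.34 and −0.06), and DESeq2 made 2 higher calls, adding RPS3. The minimum of 10 reads in every library selects gene models on their RPF reads, a part of the ratio. Under it, neither ratio median places the 26 genes against all gene models. The release minus stasis difference in RPF share was −0.22 percentage points without the dominant gene models.

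When single samples were left out, the median was −0.034 to 0.21 for total RNA (0 to 2 higher and 0 to 4 lower calls), −0.19 to −0.0082 for RPF, −0.21 to −0.043 for TE, −0.63 to −0.45 for the stasis ratio and −0.62 to −0.58 for the release ratio, and the shares differed by −0.42 to 0.13 percentage points in total RNA and −0.03 to 0.23 in RPF. The medians of all gene models moved further: −0.27 to 0.69 for RPF, −0.41 to 0.68 for TE, −1.15 to −0.21 for the stasis ratio and −0.65 to −0.20 for the release ratio. The 26 genes lay above the bulk for RPF and TE without release replicate 1, for RPF without stasis replicate 2 and for both ratios without replicate 1 of the state, and below it otherwise in these 4 tests. The cause of these moves was not tested, apart from the fewer samples.

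Between the states the replicate numbers share only a number. The differences of replicate 1 minus 2 had a correlation across gene models of 0.20 (total RNA) and 0.15 (RPF) between the states, and with 2 pairs this does not pair them. With a replicate block, 0 of the 26 genes were called in total RNA, RPF or TE, with medians of 0.10, −0.03 and −0.12. The RPF and TE comparisons are limited by 2 samples per state and by the replicate 2 RPF libraries, with as few as 11 reads for a gene. Which limit weighs more was not tested.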

Other observations

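The kinases that phosphorylate RPS6 were not among the small subunit genes but stood in the same list of orthologs. RPS6KA1, of the ribosomal S6 kinase family that acts in growth factor signalling, had 207 and 212 CPM of total RNA on release and 261 and 267 CPM in stasis, so that both release samples lay below both stasis samples (log2 change −0.33, SE 0.11, edgeR adjusted p = 0.116). Its RPF to RNA ratio was 0.71 and 0.63 on release and 0.52 and 0.41 in stasis, the opposite order (log2 change of TE 0.50, SE 0.49, edgeR adjusted p = 0.884). RPS6KB1, the S6 kinase downstream of mTOR, had 59.7 and 61.4 CPM of total RNA on release and 53.2 and 48.7 CPM in stasis (log2 change 0.25, SE 0.10, edgeR adjusted p = 0.166). It had 30 and 2 RPF reads on release and 24 and 1 in stasis, too few to compare. Neither kinase passed the threshold in any of the tests.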
